A study of Rattus norvegicus with 3 samples.

Results

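The 46 genes described here are the matrix metalloproteinases (Mmp), the ADAMTS proteases (Adamts) and the tissue inhibitors of metalloproteinases (Timp) of the rat thymus. The set takes in every gene symbol of the deposited feature list that is Mmp, Adamts or Timp followed by its number, out of 34034 features. They comprise 23 Mmp, 19 Adamts and 4 Timp genes. Thymi of 8-week-old Lewis rats gave a stromal single-cell library, a thymocyte single-cell library and a spatial section, with 1 sample each. Liberase TH with DNase I freed the stroma, from which CD45-negative cells were enriched on an autoMACS instrument and then flow-sorted, and collagenase D with DNase I freed the thymocytes. The number of animals behind each library is not given in the sources used here, and gene values of the section were not analysed here. No allele, treatment or second strain separates the groups, and the sort for CD45-negative cells removes most blood-derived cells from the stromal library before any value is read.

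Matrix metalloproteinases are secreted or membrane-bound zinc endopeptidases that cut collagens, laminins and many other proteins outside the cell. The ADAMTS proteases are secreted relatives with thrombospondin repeats, and among them are enzymes that trim procollagens, cut large proteoglycans or bind microfibrils. The 4 Timp proteins block the active site of matrix metalloproteinases, and Timp2 also takes part in the activation of pro-Mmp2 by Mmp14 at the cell surface. In the thymus, fibroblasts of the capsule and septa make most of the fibrillar matrix, while epithelial cells and vessels rest on basement membranes.

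Levels are summed UMIs (unique molecular identifiers, the tags by which captured RNA molecules are counted) of all cells of an annotation label, per 1000000 UMIs of that label (CPM), with exact Poisson 95% bounds that cover counting error only. With 1 library per group there was no test, and no difference below has a replicate check. The median annotated stromal cell had 9088 UMIs. All 13226 together had 131624350, of which 509619 (0.387%) came from the 46 genes. Of the 29 labels, 24 had at least 20 cells and were compared. The libraries shared 38 barcodes, of which 28 were annotated in the stroma. The labels are the authors' and come from these same cells, so a difference between labels describes the labelled cells and is not independent of the labelling. At least 1 UMI was found for 44 members. Of these, 26 were found in at least 25% of the cells of some label, as were 42.1% of all features with a UMI. With cells thinned to 3000 UMIs the count was 15, beside 20.7% of all features. The stromal barcodes without an annotation entered no comparison, and 4 of the 44 members had a level there whose lower bound was over 2 times that in annotated cells, as did 3.65% of all features. No UMI was found in annotated stromal cells for Mmp1 and Mmp1b, genes of the interstitial collagenase type. A count of 0 is read against a limit of 3 UMIs in the text, in place of the Poisson bound.

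Mesenchymal markers were present in every label compared, and in 8 of the 19 labels outside the mesenchyme they summed to more than the markers of the label's own name. These were B cell, EC:aEC, EC:vEC, vSMC/PC, Thymocyte, MEC, nmSC and TEC:aaTEC2. The lists differ in length and in the abundance of their genes, so the comparison depends on the label's own list too. The mesenchymal markers were at 10.8% of their mesenchymal level in EC:vEC and at 11.2% in EC:capEC, which is not among the 8. Of the mesenchymal markers, Pdgfrb was higher in vSMC/PC (402 CPM) than in the mesenchymal class (189 CPM). In B cell the sums were 7630 CPM beside 825 CPM of B cell markers, in EC:aEC 8380 beside 2955 CPM of endothelial markers, and in vSMC/PC 7572 beside 3981 CPM of mural markers. The 6 mesenchymal markers Pdgfra, Pdgfrb, Col1a1, Col3a1, Dcn and Lum summed to between 8634 CPM in TMC4 and 46347 CPM in capFb within the mesenchymal labels TMC1, TMC2, TMC3, TMC4 and capFb. They also summed to 29381 CPM in the 29 cells of TEC:aaTEC2, where the 6 epithelial markers reached 1937 CPM, against 10752 CPM in TEC:mTEC1. In the 39 nmSC cells the mesenchymal markers summed to 18453 CPM and the 3 Schwann cell markers to 272 CPM. The 48 MEC cells had 4709 CPM of the mesothelial markers Msln, Upk3b and Wt1 beside 14127 CPM of the mesenchymal ones, and 1 of them held all 425 UMIs of the mast cell protease genes Cpa3 and Tpsab1 in this label. Cells labelled Thymocyte in this CD45-negative sort had 12069 CPM of the mesenchymal markers and 4345 CPM of the thymocyte markers. Values in these labels are given beside this fact.

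**Figure D1:**
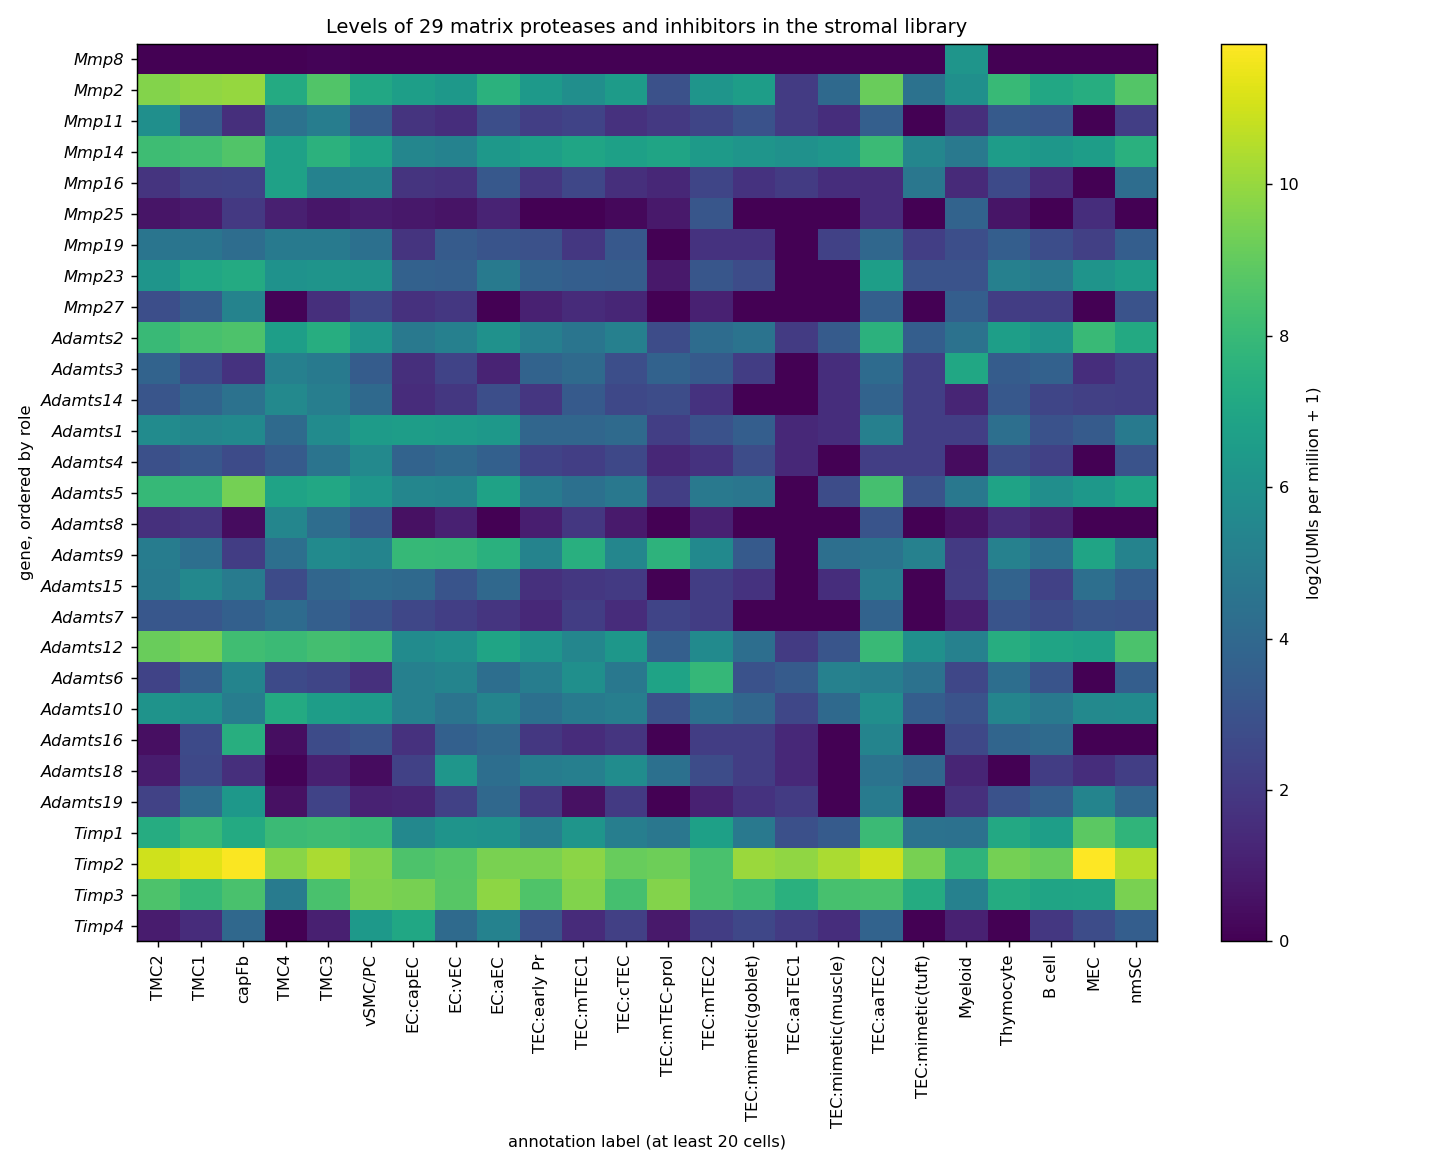
Heat map of log2(CPM + 1) for the 29 members with at least 50 UMIs in their highest label (rows, ordered by role) in the 24 labels of at least 20 cells (columns) of the stromal library. A block of Mmp and Adamts genes is bright in the mesenchymal columns on the left, Mmp8 is bright only in Myeloid, and Timp2 and Timp3 are visible in nearly every column.

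Mmp and Adamts genes were highest in the mesenchymal class, while the Timp sum was higher still in the 87 cells of MEC and nmSC together (3611 CPM). The Mmp genes summed to 1192 CPM (1184 to 1199) in the mesenchymal class and 424 CPM in the mural label vSMC/PC. They summed to 267 CPM in the blood-derived, 260 CPM in the epithelial and 236 CPM in the endothelial class. The Adamts genes summed to 1319 CPM in the mesenchymal, 757 CPM in the mural, 616 CPM in the endothelial, 372 CPM in the epithelial and 337 CPM in the blood-derived class. The mesenchymal level was thus 4.58 times the epithelial one for Mmp and 3.54 times for Adamts. The Mmp and Adamts sums of MEC and nmSC are not given here, so the mural label is not placed second. The Timp genes summed to 2683 CPM in the mesenchymal and 1276 CPM in the epithelial class, which is 2.10 times lower, but this order came from 1 gene: without Timp2 the mesenchymal to epithelial ratio was 0.970.

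Member by member, 37 of the 46 genes reached 20 UMIs in the mesenchymal or the epithelial class. Of these 37, 19 were at least 3-fold higher in mesenchyme, where 10.5% of all 17913 features so measured were. Another 10 were at least 3-fold higher in epithelium, where 17.7% of all features were. The median log2 ratio of mesenchyme over epithelium was 1.52 over the 37 members and -0.14 over all features. Against the endothelial class, 20 of 34 members were at least 3-fold higher in mesenchyme (13% of all features were) and 5 in endothelium (8.82%). The median log2 ratio was 1.78 for the members and 0.10 for all features. Against the mural label only 6 of 32 members were higher in mesenchyme (5.63% of all features) and 3 in mural cells (3.98%), with a median log2 ratio of 0.42 beside 0.11. The count of 6 became 11 when cells outside the mesenchyme with over 5000 CPM of the 6 mesenchymal markers were left out.

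**Figure D2:**
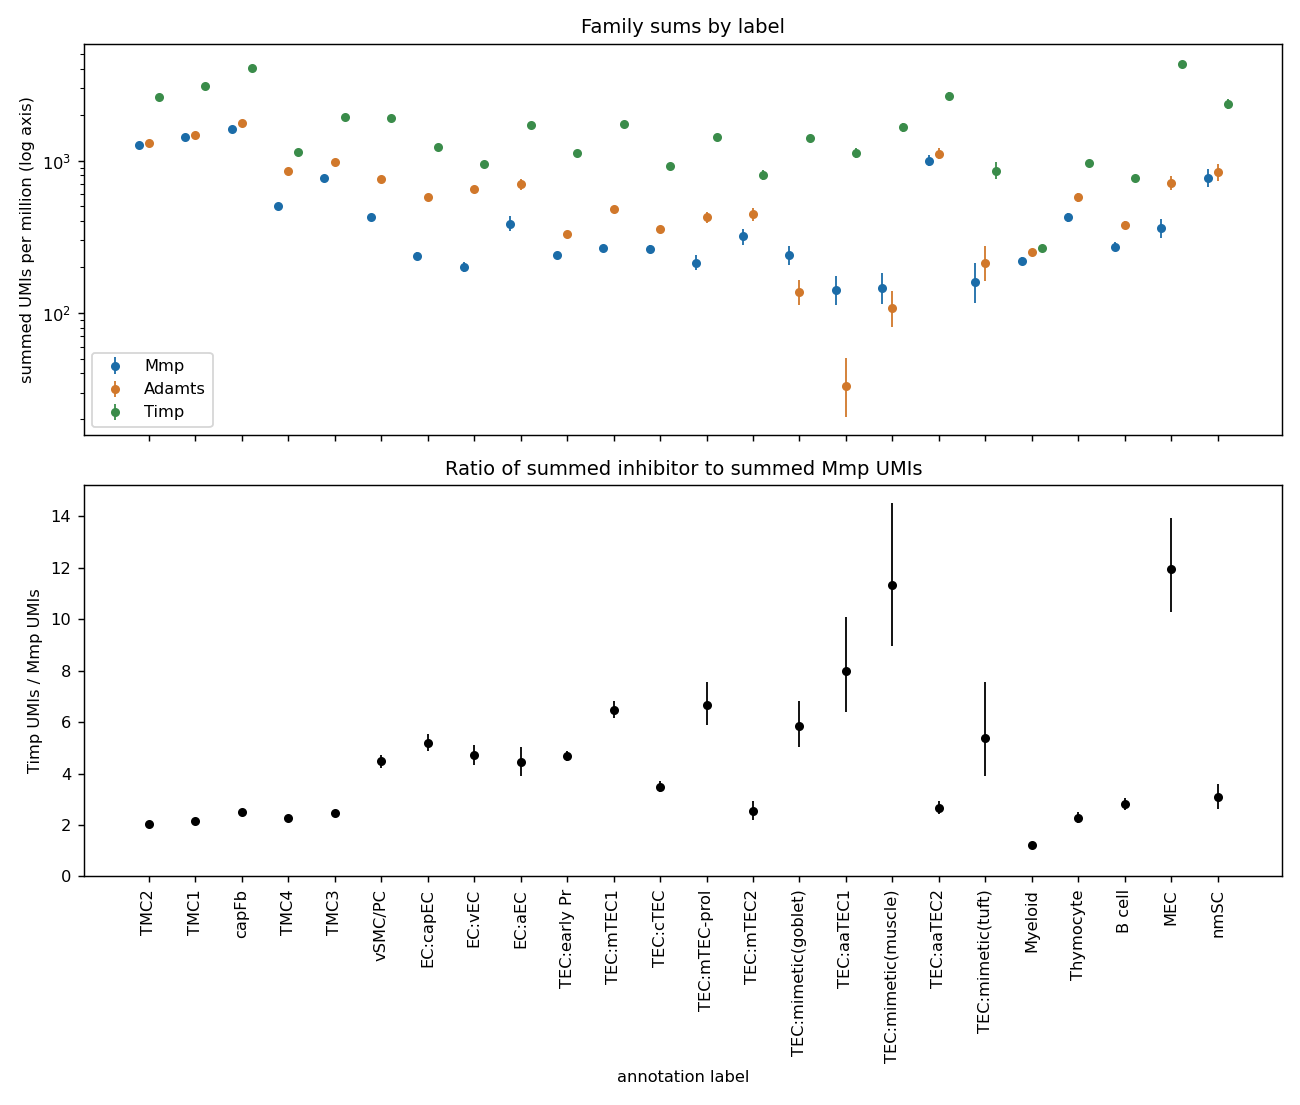
Upper panel: summed CPM of the Mmp, Adamts and Timp genes in each of 24 labels on a log axis, with exact Poisson 95% bounds. Lower panel: ratio of summed Timp UMIs to summed Mmp UMIs with exact 95% bounds, which is lowest in Myeloid (1.21) and highest in MEC (11.9).

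Several members outside the mesenchyme stood at the level of the mesenchymal markers themselves. In cells labelled Thymocyte the 6 markers were at 36.4% of their mesenchymal level, Mmp2 at 34.9%, Adamts5 at 38.9%, Adamts2 at 38.6% and Adamts12 at 36.3%. In TEC:mTEC1, where the markers were at 8.18%, Mmp2 was at 7.96%, Adamts5 at 6.71% and Adamts2 at 8.91%. In both labels these members thus kept nearly the ratio to the markers that they had in mesenchyme. A UMI of Mmp2 was found in 17.8% of Thymocyte-labelled cells against 98.6% of TMC1 cells. With cells thinned to 3000 UMIs these shares were 32.3% of the 158 Thymocyte-labelled cells deep enough and 89.0% of TMC1 cells. The ratio to the markers was not kept in MEC, where they were at 42.6%, Mmp2 at 22.7%, Adamts5 at 26.9% and Adamts2 at 102%. Other members also departed from it. In TEC:mTEC1, Mmp14 was at 44.7%, Timp2 at 41.0%, Timp3 at 262% and Adamts9 at 743% of the mesenchymal level. With the cells over 5000 CPM of the markers left out, Mmp2 in TEC:mTEC1 was 6.69 CPM and Mmp14 was 114 CPM. In Thymocyte-labelled cells the same step left 17.6 CPM of Mmp2 and 77.7 CPM of Timp2. Whether these UMIs came from mesenchymal cells or from the labelled cells themselves was not tested, and no doublet caller was run.

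**Figure D3:**
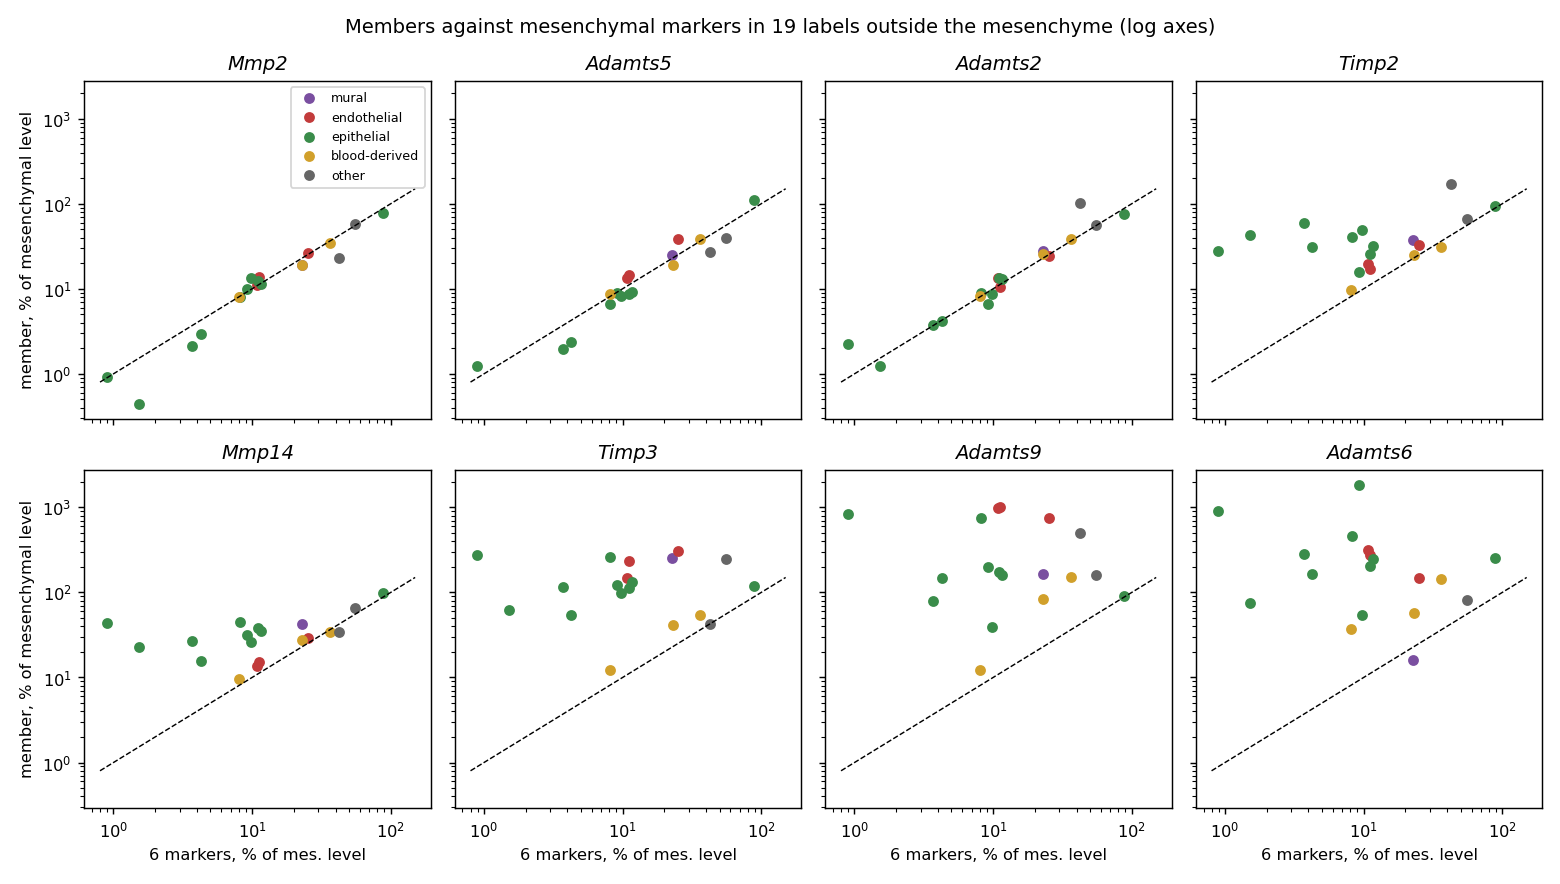
Level of 8 members, in percent of their level in the mesenchymal class, against the summed level of 6 mesenchymal markers, also in percent, in the 19 labels outside the mesenchyme (log axes, 1 point per label, coloured by class, labels at 0 not drawn). Mmp2, Adamts5 and Adamts2 lie near the dashed line of equality in most labels but not in MEC, where Adamts2 lies above it and the others below. Timp3, Adamts9 and Adamts6 lie above the line in nearly all epithelial and endothelial labels.

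Mmp2 (gelatinase A, which cuts denatured collagen and type IV collagen) was measured in nearly all cells of the high labels. Its level was 999 CPM (984 to 1015) in capFb, 934 in TMC1, 810 in TMC2, 395 in TMC3 and 148 in TMC4. Mmp14, the membrane-type protease that activates pro-Mmp2, followed the same order with 392, 307, 291, 194 and 110 CPM. So did Timp2, the third component of that activation complex, with 3564 CPM in capFb, 2577 in TMC1, 2065 in TMC2, 1286 in TMC3 and 851 in TMC4. All 3 genes were highest in capFb and lowest in TMC4 among the mesenchymal labels, and the bounds of neighbouring labels did not overlap, although for Mmp14 those of TMC1 (298 to 316) and TMC2 (284 to 297) nearly met. The 6 mesenchymal markers were lowest in TMC4 as well. Over the 24 labels the levels of Mmp14 and Timp2 had a Pearson r of 0.77 on log2(CPM + 1), and each was the other's closest partner among the 29 members compared in this way. Such a correlation over labels of 1 library describes shared levels, among them those in other labels that also held mesenchymal marker RNA.

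The label capFb held the highest level of 8 of the 34 members with at least 20 UMIs in their highest label, and of 4.43% of all 13149 features so measured. Adamts16, an Adamts gene, was at 173 CPM (166 to 179) in capFb, and 61.2% of its cells had a UMI. It was at 5.49 CPM in TMC3, 5.41 in TMC1, 0.412 in TMC2 and 0.346 in TMC4. Outside the mesenchyme the next level was 40.3 CPM in TEC:aaTEC2, whose mesenchymal markers stood at 88.6% of the mesenchymal level, so that the lead over all labels was 4.29-fold (2.83 to 6.85). Against the other mesenchymal labels pooled the ratio was 72.8 (61.7 to 86.5).

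Adamts19 was at 79.0 CPM in capFb and at 17.6 CPM or less in the other mesenchymal labels. Mmp27, a little studied member of the Mmp family, was at 38.2 CPM in capFb, 9.83 in TMC1, 6.30 in TMC2, 1.99 in TMC3 and 0.0865 in TMC4. Adamts5, an aggrecanase and versican-cutting enzyme, was at 666 CPM in capFb beside 244 in TMC2 and 241 in TMC1, and those last values did not differ beyond their bounds. These genes mark capFb off from the other mesenchymal labels by a margin above counting error.

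In capFb against the other mesenchymal labels pooled, 8 of 34 members were at least 3-fold higher (3.69% of all features) and 9 were at least 3-fold lower (11.7%). The 8 were Mmp17, Mmp25, Mmp27, Adamts5, Adamts6, Adamts16, Adamts19 and Timp4, of which Mmp17 falls outside the rule for naming and is listed to complete the count. The lower ones included Mmp11, a stromelysin, at 1.98 CPM in capFb against 58.0 in TMC2, and Adamts9 at 3.40 CPM against 50.6 in TMC3. Versican (Vcan), the large proteoglycan that Adamts5 and Adamts9 cut, was also highest in capFb, at 221 CPM.

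**Figure D4:**
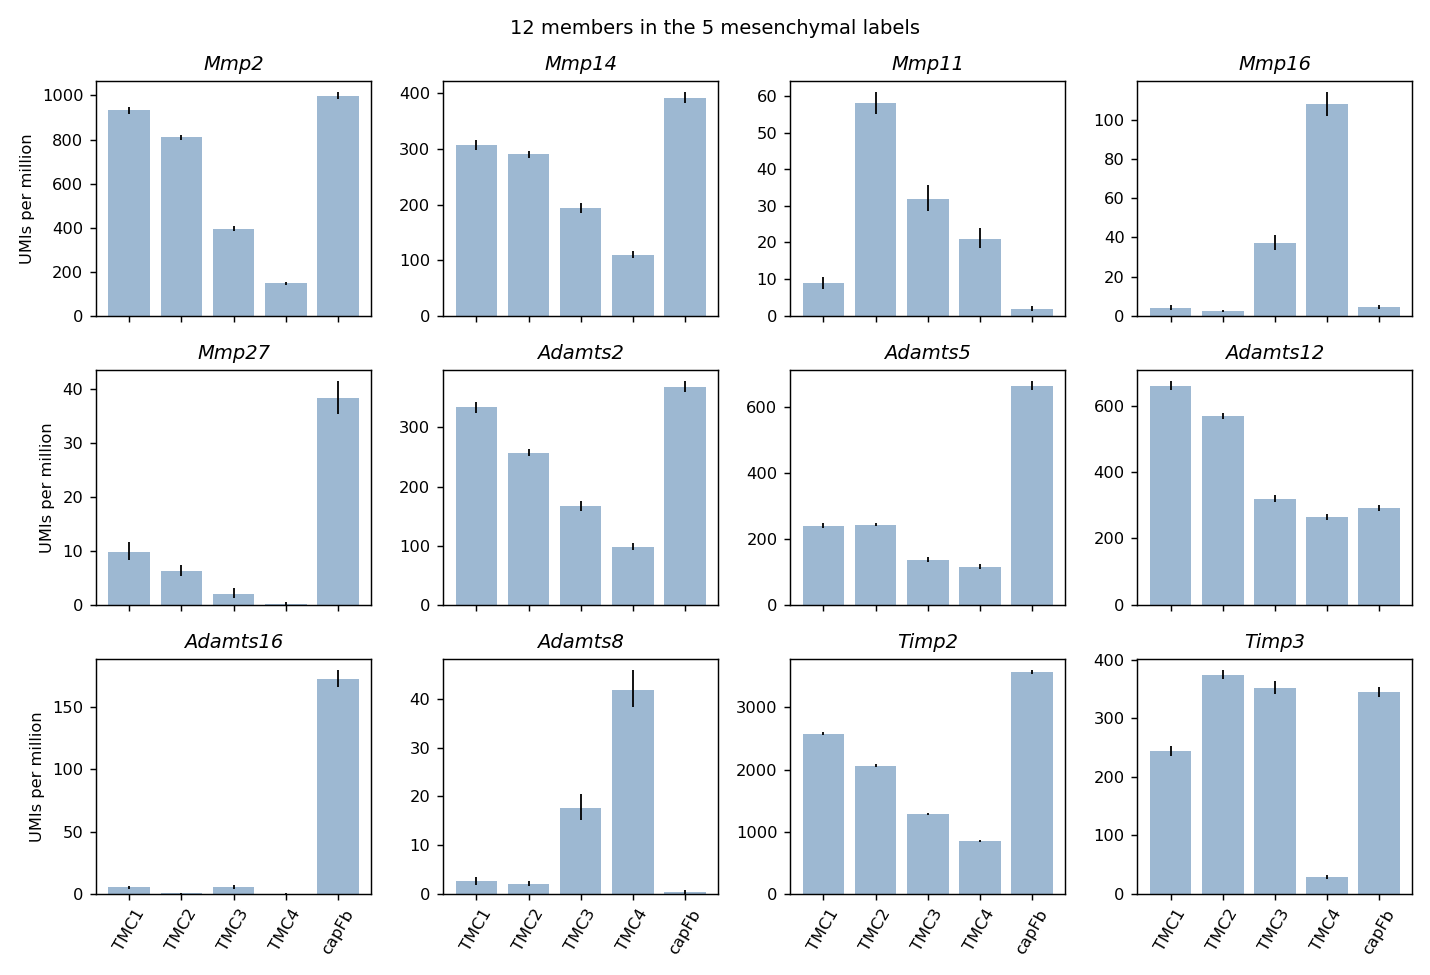
Level in CPM of 12 members in the 5 mesenchymal labels (bars, linear axes from 0, with exact Poisson 95% bounds). Adamts16 and Mmp27 stand out in capFb, Mmp11 in TMC2, Mmp16 and Adamts8 in TMC4, and Timp3 is low in TMC4 alone.

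TMC4 held the highest level of 6 of the 34 members, and of 5.73% of all features. Mmp16, a membrane-type Mmp, was at 108 CPM (102 to 114) in TMC4, 37.2 in TMC3 and below 5 CPM in TMC1, TMC2 and capFb, and 46.0% of TMC4 cells had a UMI. Adamts8, a proteoglycanase, was at 41.9 CPM in TMC4, 17.7 in TMC3, 2.56 in TMC1, 2.10 in TMC2 and 0.309 in capFb. Adamts10, which binds fibrillin microfibrils, was at 149 CPM in TMC4, 96.3 in TMC3 and 31.8 in capFb. Each of these levels was ordered TMC4, then TMC3, then the others, with bounds that did not overlap.

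Timp3, the inhibitor that stays bound to the matrix, ran against this order. It was at 375 CPM in TMC2, 352 in TMC3, 345 in capFb and 245 in TMC1 but at 29.4 CPM (26.4 to 32.7) in TMC4, where 15.9% of cells had a UMI against 64.4% to 89.2% in the other mesenchymal labels. Timp1, a secreted inhibitor, was at 267 CPM (258 to 277) in TMC4, 251 in TMC1 and 286 in TMC3, with bounds that overlapped from each to the next. The 5 mural markers summed to 473 CPM in TMC4 and 215 CPM in TMC3, against 3981 CPM in vSMC/PC. In TMC4 against the other mesenchymal labels, 6 of 34 members were at least 3-fold higher (6.37% of all features) and 10 were at least 3-fold lower (8.2%). The count of lower members took in Mmp2, at 148 CPM against 816 in the others pooled, and Timp3, at 29.4 against 337.

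The remaining mesenchymal labels each had 1 member at least 3-fold above the others pooled. In TMC2 this was Mmp11 (58.0 CPM against 14.1), where 1.75% of all features were so high, and 10 of 34 members were lower (7.03%). In TMC3 it was Adamts4, an aggrecanase (22.4 CPM against 7.17), where 0.901% of all features were, and 5 of 33 were lower (2.55%). In TMC1 it was Adamts18 (4.99 CPM against 1.05), where 1.04% were, and 7 of 33 were lower (4.46%). Adamts12, which cuts cartilage oligomeric matrix protein, had its highest level in TMC1 (659 CPM) and TMC2 (569) without a 3-fold difference.

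The 3 procollagen N-proteinases, which trim the amino-terminal propeptide of fibrillar procollagens, were highest in different labels. Adamts2 was at 368 CPM in capFb, 334 in TMC1, 257 in TMC2, 167 in TMC3 and 98.2 in TMC4. Adamts14 was at 46.7 CPM in TMC4, 32.1 in TMC3 and 21.1 in capFb. Adamts3, the paralog of both, was at 35.3 CPM in TMC4 but highest outside the mesenchyme, at 133 CPM (124 to 143) in Myeloid. Adamts3 ran over the 5 mesenchymal labels in the reverse order of Adamts2, while Adamts14 was lowest in TMC2 (7.76 CPM). The procollagen C-proteinase Bmp1 and its enhancer Pcolce were highest in capFb (186 CPM) and TMC2 (1331 CPM).

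A few proteoglycanases and the inhibitors Timp3 and Timp4 had their highest level in a vessel label, without a 3-fold lead over the next label. For Timp3 this was EC:aEC, at 899 CPM. Adamts9, which cuts versican and aggrecan, was at 242 CPM (228 to 257) in EC:capEC, 237 in EC:vEC and 181 in EC:aEC, against 24.1 CPM in the mesenchymal class. It was at 40.0 CPM in the mural label. Adamts1, another versican-cutting enzyme, was at 94.8 CPM in EC:capEC, 90.1 in vSMC/PC, 89.3 in EC:vEC and 79.9 in EC:aEC, levels whose bounds overlapped. Adamts18 was at 73.0 CPM (64.4 to 82.3) in EC:vEC, below 5 CPM in every mesenchymal label and at 53.5 CPM in TEC:cTEC.

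Adamts4 was highest in vSMC/PC, at 47.1 CPM (40.1 to 55.1), with TMC3 next at 22.4. Timp4, an inhibitor best known from the heart, was at 134 CPM (123 to 145) in EC:capEC, 81.5 in vSMC/PC, 37.5 in EC:aEC, 16.3 in EC:vEC and 15.1 in capFb. Its level was thus further apart between EC:capEC and EC:vEC than between EC:capEC and the mural label. In EC:vEC the related gene Tll1, a tolloid proteinase, was at 471 CPM, 3.34-fold above the next label, and von Willebrand factor (Vwf), the substrate of Adamts13, was at 403 CPM. Adamts13 itself had 3 UMIs in the whole annotated stroma.

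In the epithelium, Timp3 and Adamts9 were high in 2 of the medullary labels, TEC:mTEC-prol and TEC:mTEC1, but not in TEC:mTEC2 (353 and 48.0 CPM), where they were near their levels in TEC:cTEC (331 and 41.7 CPM). Timp3 was at 795 CPM in TEC:mTEC-prol and 766 in TEC:mTEC1, near its levels in EC:aEC (899), vSMC/PC (744) and EC:capEC (676). Adamts9 was at 200 CPM in TEC:mTEC-prol and 179 in TEC:mTEC1, and Adamts6 was at 117 and 59.5 CPM in the same labels. The mesenchymal markers were at 0.896% of their mesenchymal level in TEC:mTEC-prol, and these members were there at 272%, 829% and 913% of theirs. Adamts6, a microfibril-associated relative of Adamts10, had its highest level in TEC:mTEC2 at 234 CPM (203 to 269), 2.00 times that of TEC:mTEC-prol, and 50.8% of TEC:mTEC2 cells had a UMI. Adamts10 was at most 56.7 CPM in any epithelial label, that of TEC:aaTEC2, so the members of this pair had their highest levels in different classes.

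Members outside the rule for naming were also found in epithelium, and those given here were chosen after their values were seen. Adamts20 was at 17.1 CPM in TEC:mTEC1, 15.4 in TEC:early Pr and 10.2 in TEC:cTEC. By class it was at 12.8 CPM in epithelium, 1.90 in mesenchyme, 1.48 in mural cells, 1.32 in blood-derived cells and 0.225 in endothelium. MEC and nmSC together had 11.1 CPM of Adamts20 on 9 UMIs, and nmSC was its highest label. Mmp15, a membrane-type Mmp, was at 63.4 CPM in TEC:aaTEC1, 60.2 in EC:capEC and 53.4 in TEC:mimetic(tuft), and at or below 4.41 CPM in every mesenchymal label. Mmp9, the gelatinase B, was at 36.6 CPM (25.0 to 51.6) in TEC:mTEC2 and 35.8 in TEC:mTEC-prol, on 32 and 49 UMIs, with TMC4 next at 17.4.

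The Aire-bearing label TEC:mTEC2, of 61 cells, also held most of the annotated stromal UMIs of 2 Mmp genes. Mmp20, the enamel protease enamelysin, had 26 UMIs in 10 of its cells and 1 UMI in all other annotated cells. Stromal barcodes without an annotation held another 24 UMIs of Mmp20. Mmp7 (matrilysin) had 25 UMIs in 5 cells of this label, 10 and 9 of them in single cells, and 9 UMIs in other annotated cells. Mmp12, Mmp13 and Mmp3 had 6, 2 and 1 UMIs in TEC:mTEC2. Of the 61 cells, 15 had a UMI of at least 1 of these 5 genes, and 5 had UMIs of more than 1 of them. The UMIs thus lay in few cells, and Mmp20 and Mmp7 were found together in 2. The macrophage gene C1qa had 14 UMIs in 4 TEC:mTEC2 cells, more per UMI sequenced than in any other label compared, and the leukocyte gene Ptprc had 35 UMIs in 6. None of the 3 cells with Mmp12 had a UMI of either.

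The 505 Myeloid cells of the stromal library carried Mmp8 and Adamts3, and mostly in different cells. They carried genes of granulocytes and their precursors: S100a8 was at 49371 CPM, the azurophil granule genes Mpo and Elane at 1871 and 2727 CPM, Camp at 12208 CPM, and the macrophage gene C1qa at 0. Mmp8, the neutrophil collagenase, had 434 UMIs in 21 of these cells and 1 UMI in all other annotated cells. Adamts3 had 805 UMIs in 272 cells. In the 21 Mmp8-bearing cells Mpo and Elane were at 0 CPM and S100a9 at 240257 CPM. In the 272 Adamts3-bearing cells Mpo was at 2425 CPM, Elane at 3706 CPM and S100a9 at 40314 CPM. Only 4 cells had UMIs of both. These subsets were formed on the members after the values were seen, so the values describe the cells and carry no test.

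Within Myeloid, Mmp9 had 94 UMIs in 9 cells, 37 of them in 1 cell, and 8 of the 9 also had Mmp8. Mmp25, a membrane-type Mmp of leukocytes, had 76 UMIs in 62 cells, and Mmp27 had 64 UMIs in 51 cells. The 12.6 CPM of Mmp25 in Myeloid was its highest level. Myeloid was among the labels with the lowest mesenchymal markers, at 8.10% of the mesenchymal level, and Mmp2 was at 8.07% of its own.

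Over all labels, 6 of the 34 members with at least 20 UMIs in their highest label stood at least 3-fold above the next label, a share of 17.6%. Over all 13149 features so measured it was 9.44%. They were Mmp8 and Adamts3 in Myeloid, Mmp27 and Adamts16 in capFb, and Mmp20 and Mmp7 in TEC:mTEC2. The latter 2 had under 50 UMIs and are named after their values were seen. Thinning every cell to 3000 UMIs left 3 such leads (Mmp8, Adamts16 and Adamts3). Leaving out cells with 3 or more UMIs of 10 thymocyte genes, a list that includes Ptprc, also left 3 (Mmp27, Adamts16 and Adamts3).

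Of these 6, 4 are neighbours. In the RefSeq table of the GRCr8 assembly, 10 Mmp genes lie in a row on chromosome 8 with 0 other protein-coding genes between them, in the order Mmp13, Mmp12, Mmp1b, Mmp3, Mmp1, Mmp10, Mmp8, Mmp27, Mmp20 and Mmp7. Their UMIs in the annotated stroma were 5, 19, 0, 6, 0, 2, 435, 1103, 27 and 34. Neighbours thus had their highest level in unlike labels: Mmp8 in Myeloid, Mmp27 in capFb, and Mmp20 and Mmp7 in TEC:mTEC2.

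Of the 46 members, 35 have an entry in the RefSeq promoter table of GRCr8, which differs from the build of the counts and is used for sequence alone. In the 250 bases before the start, TGAGTCA (the AP-1 site, searched on both strands) is present in 4.05% of all 33469 promoters and TATAAA (the core promoter box of this name, both strands) in 12.9%. Of the 10 neighbours, 6 have the AP-1 letters and 8 have those of the core box. Of the 25 other members with an entry, 0 have the former and 4 have the latter, and their promoters hold a median of 16 CG dinucleotides against 3 in the neighbours. The 120 bases before the start of 7 of the neighbours are shown, because they set the neighbours with most UMIs in stroma beside others with few. Each is written 5′ to 3′ on the gene's strand, and capitals mark matches of both motifs on either strand.
Mmp13 (chr8:12782709-12782828, plus strand): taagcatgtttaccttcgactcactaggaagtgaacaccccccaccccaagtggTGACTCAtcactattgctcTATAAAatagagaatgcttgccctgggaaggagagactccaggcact
Mmp12 (chr8:12866532-12866651, plus strand): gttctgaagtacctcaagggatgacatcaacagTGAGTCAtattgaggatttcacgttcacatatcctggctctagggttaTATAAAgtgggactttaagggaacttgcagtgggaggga
Mmp3 (chr8:12925161-12925280, plus strand): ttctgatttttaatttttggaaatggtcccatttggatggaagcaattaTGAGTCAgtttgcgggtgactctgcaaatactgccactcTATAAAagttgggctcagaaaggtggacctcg
Mmp8 (chr8:13008770-13008889, plus strand): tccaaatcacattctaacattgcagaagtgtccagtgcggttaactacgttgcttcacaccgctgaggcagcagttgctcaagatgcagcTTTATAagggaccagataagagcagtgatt
Mmp27 (chr8:13030632-13030751, plus strand): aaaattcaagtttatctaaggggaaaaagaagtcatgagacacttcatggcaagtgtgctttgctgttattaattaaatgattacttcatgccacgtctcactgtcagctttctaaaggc
Mmp20 (chr8:13074159-13074278, plus strand): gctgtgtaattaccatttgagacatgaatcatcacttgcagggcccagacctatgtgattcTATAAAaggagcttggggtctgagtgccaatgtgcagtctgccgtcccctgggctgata
Mmp7 (chr8:13132923-13133042, plus strand): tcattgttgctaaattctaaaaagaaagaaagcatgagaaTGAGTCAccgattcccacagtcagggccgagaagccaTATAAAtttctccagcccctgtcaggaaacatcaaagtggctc

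Mmp27 has neither motif in its 250 bases and had the most stromal UMIs of the row. Mmp1b, whose bases are not shown, also has neither motif and had 0 UMIs. Mmp8 and Mmp20 have the core box without the AP-1 letters. Mmp13, Mmp12, Mmp3 and Mmp7 have both, and of these only Mmp7 passed 20 UMIs in the annotated stroma, while Mmp12 had 993 UMIs in the thymocyte library. A match is a string of letters and not a measured site, and no binding or accessibility data were used.

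The balance of inhibitor to protease RNA differed between labels. The ratio of summed Timp to summed Mmp UMIs counts RNA of different genes and is read only between labels. It was 2.25 (2.23 to 2.27) in the mesenchymal class and 4.91 in both the epithelial (4.79 to 5.03) and the endothelial class (4.69 to 5.15), a difference of 2.18-fold between epithelium and mesenchyme. Among epithelial labels it ran from 2.54 (2.21 to 2.93) in TEC:mTEC2 and 2.67 in TEC:aaTEC2 through 6.49 in TEC:mTEC1 to 8.00 in TEC:aaTEC1 and 11.3 (8.96 to 14.5) in TEC:mimetic(muscle). It was 11.9 (10.3 to 13.9) in MEC, whose Timp2 level of 3688 CPM did not differ from that of capFb beyond counting error. MEC was also the highest label of Timp1, at 465 CPM (409 to 527). The mesenchymal markers were at 42.6% of their mesenchymal level in MEC and at 88.6% in TEC:aaTEC2. In the 47 MEC cells without the mast cell genes, a split chosen after seeing the data, the ratio was 13.6 (11.6 to 16.1), Timp1 was at 481 CPM and Timp2 at 3735 CPM. Myeloid had the lowest ratio, 1.21 (1.13 to 1.31). Its Timp2, Timp1 and Timp3 were at 9.62%, 9.87% and 12.3% of their mesenchymal levels, beside 8.10% for the markers. The Mmp side of this ratio took in 434 Mmp8 UMIs from 21 cells. How much of each label's ratio came from mesenchymal RNA was not tested. The ratios of the mesenchymal labels lay close together, between 2.05 in TMC2 and 2.51 in capFb. Their Mmp sums nevertheless ran from 504 CPM in TMC4 to 1622 CPM in capFb.

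The thymocyte library, of 8546 annotated cells and 64440495 UMIs, held far less of each family, with 36.6 CPM of Mmp, 45.1 CPM of Adamts and 55.6 CPM of Timp. It came from another digestion, and levels across the libraries are set side by side only. Mmp12, the macrophage metalloelastase, had 990 UMIs in the 170 B+myeloid cells, a level of 414 CPM (389 to 441) in 54 cells. Mmp12 had 0 UMIs in the stromal Myeloid label, where 3 UMIs, the limit set for a count of 0, would be 0.497 CPM. C1qa was at 2642 CPM in B+myeloid and at 0 in stromal Myeloid, and 50 of the 54 Mmp12-bearing cells had a UMI of it against 24 of the 116 others. Mmp12 is among the 17 members outside the rule for naming, and this result and those on Mmp9 below were picked after their values were seen.

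Thymocyte labels differed in Mmp9 and Timp2. Mmp9 was at 156 CPM (130 to 185) in Immature CD4-2, where 53 of 103 cells had a UMI, at 91.2 in Immature CD4-1, 83.4 in intCD4, 67.7 in Mature CD8-2 and 49.7 in AgoSel1. It was at 0.317 CPM in DP and at 0 UMIs in DN, where 3 UMIs would be 0.277 CPM. Timp2 was at 546 CPM in B+myeloid, 299 CPM (279 to 320) in gdT, where 109 of 128 cells had a UMI, 53.6 in DN and 36.3 in DP-P. It was below 8 CPM in each of the other 17 labels. So Timp2 was found in gdT, DN and DP-P but hardly in DP (3.44 CPM), and Mmp9 was unequal among the CD8 labels, with 3.16 CPM on 3 UMIs in Mature CD8-1. All 76 Mmp2 UMIs of this library were in 5 cells of B+myeloid.

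**Figure D5:**
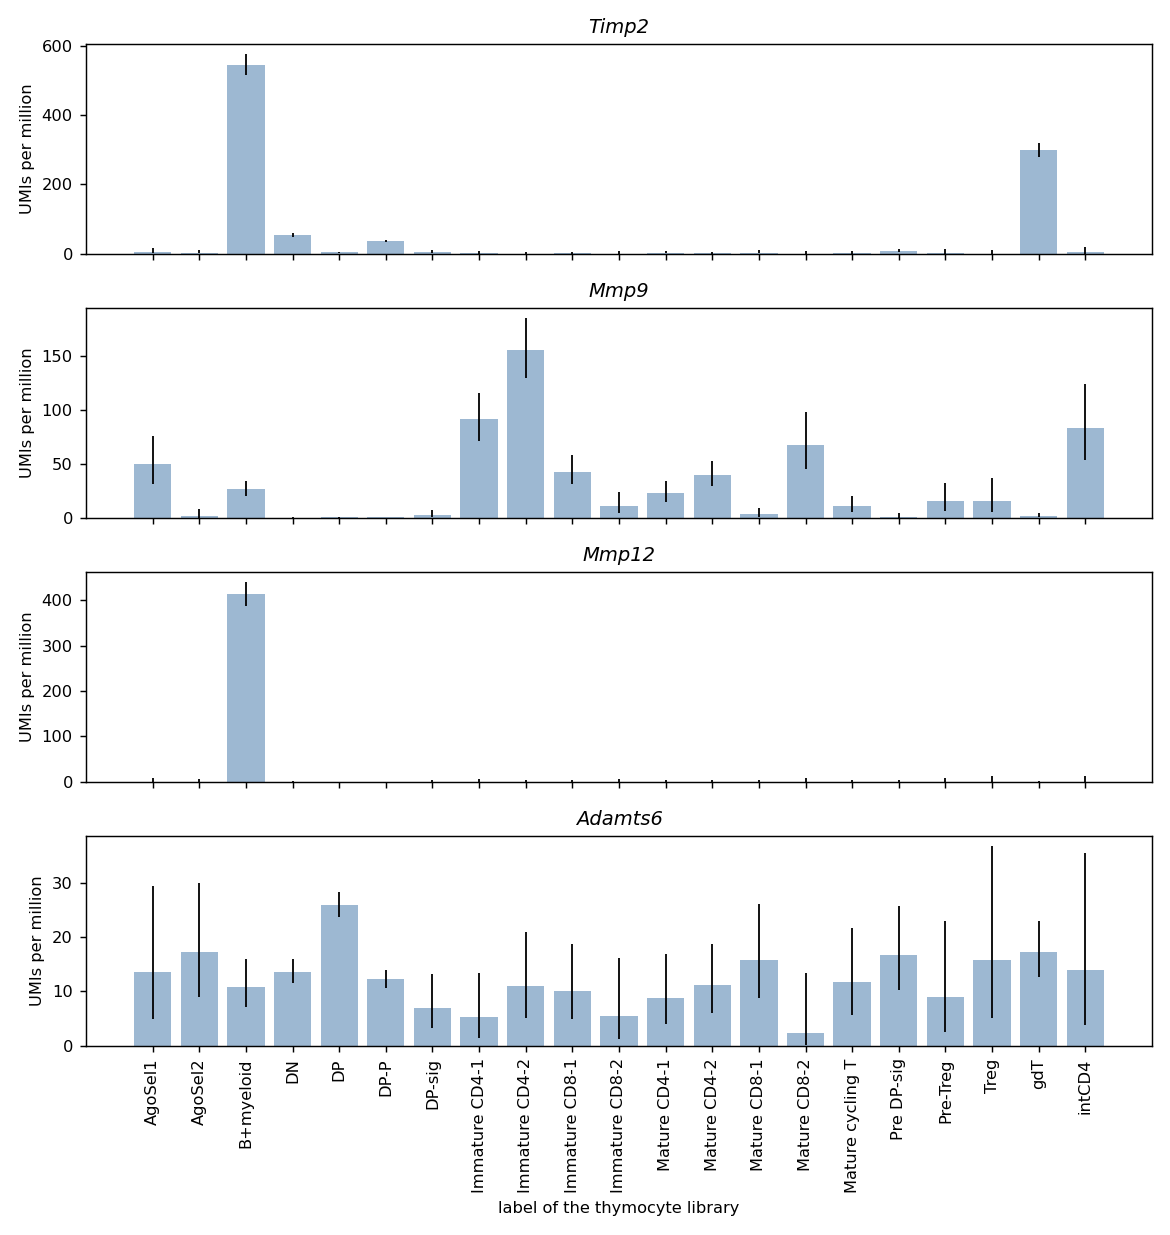
Level in CPM of Timp2, Mmp9, Mmp12 and Adamts6 in the 21 labels of at least 20 cells of the thymocyte library (bars from 0, with exact Poisson 95% bounds). Timp2 is high in B+myeloid and gdT, Mmp9 in Immature CD4-2, Mmp12 in B+myeloid alone, and Adamts6 is spread, with its highest level of 26.0 CPM in DP.

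Likeness between members was measured as Pearson's r of log2(CPM + 1) over the 24 stromal labels, as a description. The closest pair was Mmp2 and Adamts5, with r of 0.98. Adamts2, Adamts12 and Timp1 each had Mmp23, a type II membrane protease, as their closest partner, with r of 0.96, 0.96 and 0.91. Adamts1 and Adamts4 were closest to each other, at 0.82. Adamts9 was closest to Timp3 at 0.52, and Adamts6 to Adamts18 at 0.52. The labels share 1 library, in which mesenchymal marker RNA was also found outside the mesenchyme.

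Genes that regulate or feed the same proteolysis were described from lists of related genes, where a lead again means 3-fold above the next label. Of 7 measured membrane and soluble regulators, 1 led, the Mmp inducer Bsg in MEC at 4157 CPM. Of 5 plasminogen genes, 1 led, the urokinase receptor Plaur in Myeloid at 205 CPM. The urokinase gene Plau was highest in TMC2 at 430 CPM. Of 6 ADAMTS-like genes, 8 ADAM sheddases, 6 cathepsins and 3 furin-type convertases, 0 led a label. Their highest members were Adamtsl1 in capFb at 559 CPM, Adam19 in TEC:mTEC-prol at 748 CPM, Ctsl in TEC:cTEC at 2353 CPM and Pcsk6 in capFb at 562 CPM. Of 7 measured substrates 1 led, Vwf in EC:vEC, and of 3 tolloid genes 1 led, Tll1 in EC:vEC. Over all features 9.44% lead a label in this sense.

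The 17 members under 50 UMIs in their highest label were Mmp1, Mmp1b, Mmp3, Mmp7, Mmp9, Mmp10, Mmp12, Mmp13, Mmp15, Mmp17, Mmp20, Mmp21, Mmp24, Mmp28, Adamts13, Adamts17 and Adamts20. Some of these, such as Mmp15 and Adamts17 with 1570 and 1015 UMIs in all, missed the rule because the label of their highest level was small. Mmp13, Mmp3, Mmp21, Mmp10 and Adamts13 had between 2 and 6 UMIs each in all annotated stroma, so their order over labels was not detectable at this depth.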

How the data were processed

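RNA of single cells was measured in 1 stromal and 1 thymocyte library. The deposited matrices hold raw UMI counts. The submitters' processing notes name Cell Ranger 8.0.0, Seurat 5.3.0 and build mRatBN7.2. The authors also deposited a mitochondrial percent for each cell, on which no filter was set here. Labels are the authors' deposited projected labels, or initial clusters where none was given. Of 16160 stromal barcodes, 13226 were annotated and used. UMIs were summed per label of at least 20 cells with Python 3.11.15, SciPy 1.17.1 and pandas 2.3.3. A lower label under 3 UMIs was set to 3 UMIs in a ratio. Bounds are exact at 95% (Poisson, Clopper-Pearson or conditional binomial) and cover counting error only. A lead needed 20 UMIs and 3-fold, and members with 50 UMIs in their highest label were named. On simulated counts the lead rule called 46 of 50 genes raised 4-fold and 0 of 50 raised 2-fold, a rise below the 3-fold that a lead needs. How the rule does at UMI totals as low as those of the 6 leads, such as Mmp20 (27) and Mmp7 (34), was not tested. How it does where the UMIs lie in few cells, as for Mmp8, Mmp20 and Mmp7, was not tested either. The gene family, whose members follow from their names, and the lists were chosen with earlier results of these data known. No doublet caller was run. The spatial section was not used here.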

Additional observations from a re-analysis of the deposited data

Results flagged for a closer look

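The 2934 stromal barcodes without an annotation entered no comparison. They held 8663291 UMIs, with a median of 1220 per barcode, and 1091 of them had fewer than 1000 UMIs. Of the 46 members, 4 had a level there with a lower bound more than 2 times that of the annotated cells, as did 3.65% of all 26956 features with a UMI. Adamts6 was at 56.0 CPM on 485 UMIs in 178 barcodes, against 20.8 CPM in annotated cells. Adamts9 was at 110.1 CPM in 279 barcodes, against 49.5 CPM. Mmp20 was at 2.77 CPM on 24 UMIs in 4 barcodes, of which 1 had 20, against 0.205 CPM. Mmp12 was at 1.85 CPM on 16 UMIs in 8 barcodes, against 0.144 CPM. In the 4 Mmp20-bearing barcodes the epithelial gene Epcam was at 1174 CPM and Aire at 404 CPM. In the Adamts6-bearing barcodes Epcam was at 504 CPM and Col1a1 at 1127 CPM. These barcodes have no label, so their cells are not named.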

How the results depend on the processing

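No paired analysis was possible because there was 1 sample in each group. Under 14 settings (12 planned and 2 added after seeing the data) 727 values were recomputed. Of these, 533 kept their direction and stayed within the set tolerance, 190 moved further and 4 were counted as reversed. The mesenchymal to epithelial ratio of family sums (4.58 for Mmp, 3.54 for Adamts and 2.10 for Timp) was 5.29, 3.71 and 2.14 with the mean of the cells' own CPM, and 4.33, 3.35 and 1.99 with totals that leave out mitochondrial, ribosomal protein and haemoglobin genes. It was 5.33, 3.64 and 2.13 with cells thinned to 3000 UMIs, and 2.02 for Timp with the initial cluster as label. It was 2.62, 2.78 and 0.970 (reversed) without the most abundant member of each family, and 7.40, 4.68 and 2.39 with marker-rich cells outside the mesenchyme left out, a setting chosen after seeing the data. The epithelial to mesenchymal ratio of Timp over Mmp (2.18) was 2.47, 2.50, 2.26, 2.70 and 3.09 with the mean CPM, thinning, the initial cluster, the most abundant members left out and the marker-rich cells left out. The 6 leads became 3 with cells of few thymocyte-gene UMIs, 3 with thinning, 11 at 2-fold and 3 at 5-fold. With thinning, the ratio of the highest to the next label was 0.998 for Mmp27, 0.667 for Mmp20 and 0.533 for Mmp7. Few UMIs are left there, and a next label under 3 UMIs is set to 3 UMIs. These ratios below 1 are among those counted as reversed. For Mmp20 and Mmp7 no UMI was left in any compared label but TEC:mTEC2, so their ratios reflect that limit and not a higher label. Thinning also took the 10 members higher in epithelium to 6, and the 26 members found in at least 25% of the cells of a label to 15 (42.1% of all features, and 20.7% with thinning). At 2-fold in place of 3-fold, 8 members were higher in endothelium (5 at 3-fold), 10 higher in mesenchyme than in mural cells (6) and 5 higher in mural cells (3). With marker-rich cells left out, 11 members were higher in mesenchyme than in mural cells. Apart from thinning, the causes were not tested. The depth limits members in small labels most, since 3 UMIs in the 39 nmSC cells are 10.6 CPM.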

Other observations

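Adamts6 was found in all 21 labels of at least 20 cells of the thymocyte library, from 2.42 CPM in Mature CD8-2 upwards. It was at 26.0 CPM (23.8 to 28.4) in DP on 492 UMIs, 17.3 in gdT, 13.6 in DN and 12.2 in DP-P. The share of cells with a UMI was 6.90% in DP, at a median of 3206 UMIs per cell, and 19.7% in DN, at a median of 23190, so the share was higher in the deeper label and the level was not. Adamts10 was highest in Immature CD4-1 at 50.8 CPM and intCD4 at 38.2, and these did not differ beyond counting error. Adamts3 was at 44.2 CPM in Treg and 38.7 in AgoSel2, also within counting error. Mmp8 had 364 UMIs in 7 of the B+myeloid cells.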
